A study of Mus musculus with 6 samples.

Results

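Oxidative phosphorylation is carried out by 5 protein complexes of the inner mitochondrial membrane, and the genes described here are those of their subunits that lie in the nuclear genome. They were chosen by name from the deposited count table, leaving out 7 names marked as pseudogenes. The names were Ndufa, Ndufb, Ndufc, Ndufs or Ndufv with a number, Sdha to Sdhd, and Cyc1. Names starting with Uqcr, Cox4 to Cox8 or Atp5 were also taken. A rule by name can miss subunits and can hold genes that are not structural subunits. The rule found 84 genes of the 53670 in the table, with 37 in complex I, 4 in complex II, 9 in complex III, 18 in complex IV and 16 in complex V. The naming rule uses no measured value, although these genes were picked for description with earlier results of these data known. RNA had been sequenced from isolated pancreatic islets of 6-week-old mice, in 3 libraries of genotype Paupar +/+ (WT) and 3 of genotype Paupar -/- (KO). Paupar is a long noncoding RNA gene next to Pax6. The labels and notes used here do not give the way the knockout allele was made, the strain, or whether each library came from its own animals. P-values therefore cover the spread among these libraries alone, and that spread may be partly technical. The sex-linked counts given below differ between KO replicate 1 and the other KO libraries, so these did not all come from the same animals. Where 3 values of a group are listed, they are those of its replicates 1, 2 and 3.

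Complexes I and II pass electrons from NADH and succinate to ubiquinone, complex III passes them on to cytochrome c, and complex IV passes them to oxygen. Complexes I, III and IV pump protons, and complex V, the ATP synthase, lets them back and makes ATP. In beta cells the ATP made in this way from glucose closes potassium channels and so links glucose to insulin release. Apart from complex II, whose subunits are all nuclear, each complex joins nuclear subunits to a few that the mitochondrial genome encodes.

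Libraries held 25733194 to 27285009 counts. The WT libraries held 177, 252 and 111 counts of Paupar itself, and the KO libraries 4, 0 and 4. The libraries did not match in sex-linked transcripts: Xist had 1120 and 862 counts in KO replicates 2 and 3 and between 0 and 6 in each of the other 4 libraries, and the Y-linked gene Ddx3y had 2 and 0 counts in those 2 libraries and 1316 to 1830 in the others. Results are therefore also given for KO replicate 1 alone against WT, and without it. The islet label fits the counts, since beta cell genes such as Ins1 and Ins2 summed to 216312 to 286899 CPM over the libraries. CPM, the usual count scaled to the library total, here uses totals adjusted by TMM factors, which even out differences in composition between libraries. In whole islets, fewer cells of a type and less RNA per cell cannot be told apart.

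Summed over all 84 genes, subunit transcripts stood higher in each KO library than in any WT library, by a modest amount that was alike across the 5 complexes. The sum was 5192, 5008 and 5089 CPM for WT, and for KO it was 5904, 6123 and 5934 CPM. The group means were 5096 ± 91.9 CPM in WT and 5987 ± 118.6 in KO (SD, n = 3 each), a ratio of 1.17. Atp5a1 and Atp5b alone gave 21.0% of the summed CPM, and without them the means were 4022 ± 68.3 and 4737 ± 104.8, a ratio of 1.18. No p-value is given for these sums, because the genes were chosen with earlier results of these data known.

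The genes of complex I summed to 1473 ± 38.04 CPM for WT and to 1717 ± 76.95 for KO, a ratio of 1.17. For complex II it was 427.7 ± 11.1 and 514 ± 9.77 (ratio 1.20), and for complex III 527.7 ± 17.9 and 607.7 ± 4.95 (ratio 1.15). Complex IV had 728.1 ± 8.64 CPM in WT and 886.5 ± 23.3 in KO (ratio 1.22), and complex V had 1940 ± 53.5 and 2261 ± 48.4 (ratio 1.17). Without Cox6a2, which was nearly absent in WT replicate 1, complex IV summed to 705.5 ± 17.8 and 833.1 ± 17.8 CPM, a ratio of 1.18, below that of complex II. This sum was added after the data were seen. In each of the 5 complexes the lowest KO library lay above the highest WT library. The summed CPM of all tested genes did not overlap either, with a ratio of 1.05. It was 952150 to 1007030 in WT and 1015450 to 1036460 in KO. As a share of all counts, the ratios for complexes I to V were 1.11, 1.14, 1.09, 1.15 and 1.11. On that scale too, no complex overlapped between groups.

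**Figure D1:**
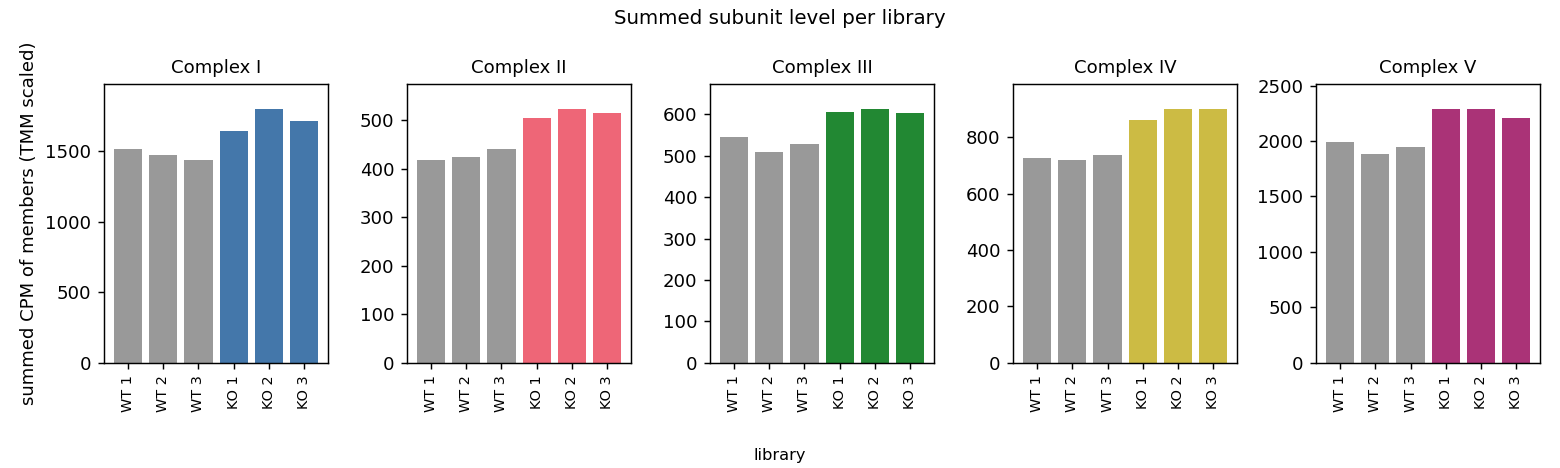
Summed TMM-scaled CPM of the subunit genes of each complex (y axis, from 0, a scale of its own in each panel) in each library (x axis; WT grey, KO coloured, 1 bar per library). In every panel the 3 KO bars are above the 3 WT bars, with ratios of the group means from 1.15 in complex III to 1.22 in complex IV (1.18 without Cox6a2). The same ratio over all tested genes was 1.05.

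Gene by gene, edgeR's quasi-likelihood test with Benjamini-Hochberg adjustment over all 15915 tested genes called none of the 84 genes, either way. The low-count filter kept 79 of them, and the other 5 are isoforms whose counts are given below. Each of the 79 had at least 13 counts in every library. Over all tested genes the same test called 0.17% lower and 0% higher in KO. At an unadjusted p below 0.05, 53 of the 79 were higher in KO and 0 lower, where 6.99% of all tested genes were higher and 9.38% lower. DESeq2 called 9 of the genes higher at an adjusted p below 0.05, against 1.24% of all genes for which it gave one, and limma-voom called 0, with 53 at an unadjusted p below 0.05 (7.05% of all genes). The 9 were Ndufb8, Ndufb11, Ndufs5, Sdha, Sdhb, Uqcrc2, Cox5b, Atp5a1 and Atp5g3, so every complex had at least 1.

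All 79 log2 fold changes (KO over WT) were positive, against 50.3% of all tested genes. With library totals in place of TMM 76 were positive (37.7% of all genes). With offsets for length and GC content it was 76 of 78 (50.1% of all genes). In the main fit the median of the 79 was 0.23, with the middle 50% between 0.19 and 0.27, while the median of all tested genes was 0.0023. The medians were 0.23 in complex I, 0.29 in complex II, 0.22 in complex III, 0.24 in complex IV and 0.22 in complex V. Every KO library was above every WT library for 61 of the 79 genes, where 11.3% of all tested genes had that pattern, and below for none. Set alone against the WT libraries, KO replicate 1 gave a median of 0.22, with 74 positive and 11 higher at an unadjusted p below 0.05 (2.43% of all genes in that fit). That fit takes its spread from the WT libraries alone and assumes that the lone KO library varies as they do. Without KO replicate 1 the median over the subunit genes was 0.23, with 78 positive and 34 higher (6.06% of all genes).

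**Figure D2:**
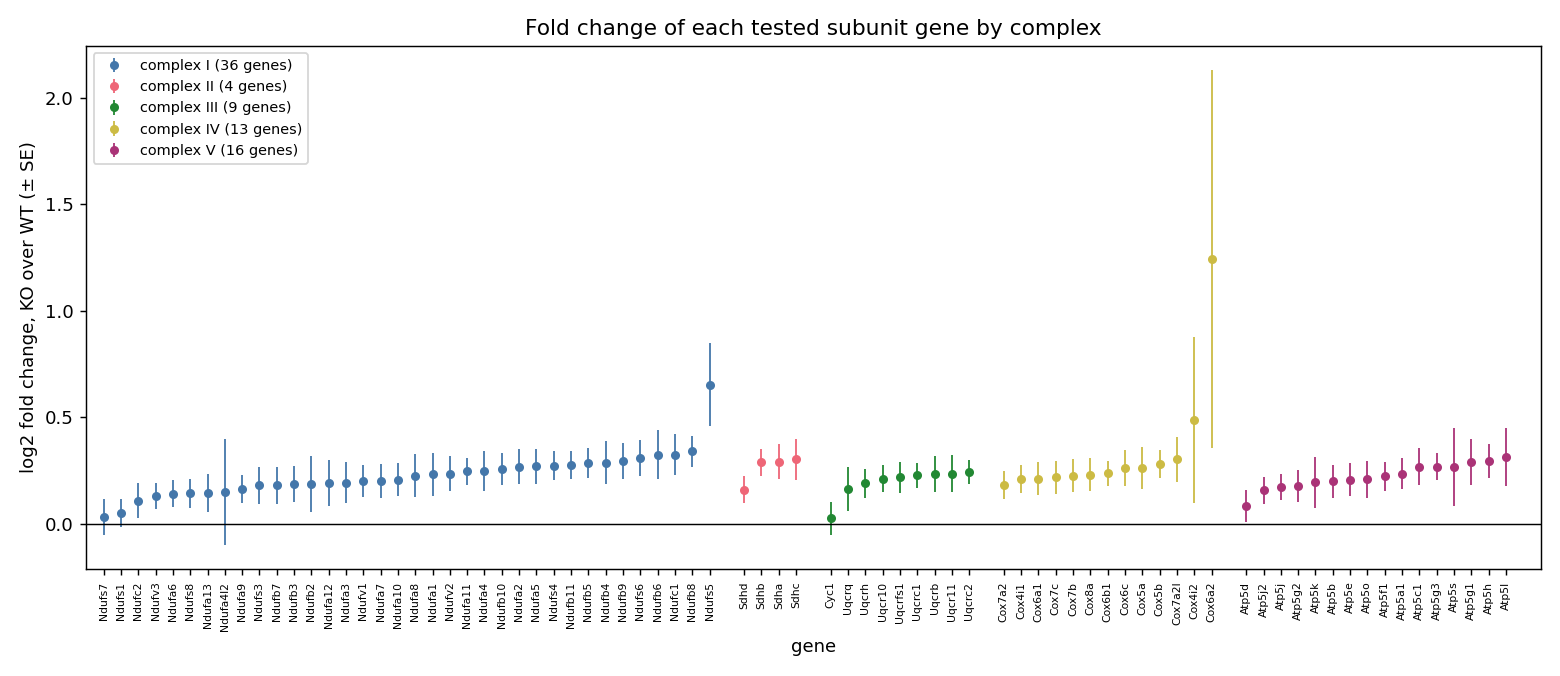
Log2 fold change, KO over WT (y axis), of 78 of the 79 tested subunit genes (x axis, by complex and then by size), with points for edgeR's estimate and bars for 1 SE either way. All points lie above 0 with TMM scaling (3 do not with library totals), the middle 50% of them between 0.19 and 0.27, and Cox6a2 and Ndufs5 are the highest.

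Within a group the genes were even between libraries. The median coefficient of variation over the 79 genes was 6.06% in WT and 4.97% in KO, against 11.8% and 10.7% over all tested genes. The 2 sets were not matched for level: the median of the mean CPM was 45.6 for the 79 genes and 13.6 for all tested genes. The median deviation of the genes from their own means, on the log2(CPM + 0.5) scale, was -0.066, -0.14 and -0.10 for WT and 0.099, 0.14 and 0.10 for KO. KO replicate 1, which had few Xist counts as the WT libraries did, was at 0.099, above every WT library and the lowest of the KO libraries. The part of the sex-linked difference in these values was not tested.

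**Figure D3:**
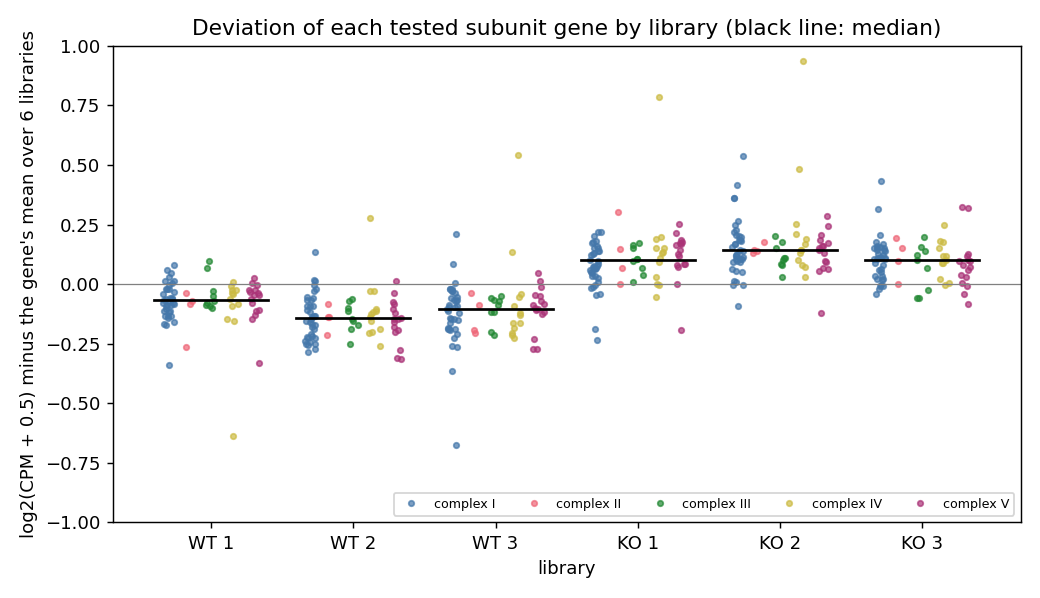
Deviation of each tested subunit gene from its mean over the 6 libraries, on the log2(CPM + 0.5) scale (y axis), by library (x axis), coloured by complex, with a black line at the median over the 79 genes. The lines are at -0.066, -0.14 and -0.10 in WT and 0.099, 0.14 and 0.10 in KO. A total of 2 points lie outside the plotted range of -1 to 1.

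Promoter sequences are shown because the genes stood higher together, and because several carry motifs of factors known to drive respiratory genes. RefSeq windows from 250 bases before to 50 after the start (GRCm38.p6) were found for 68 of the 84 genes, in 73 windows. The NRF1 motif, searched on both strands as GCGCA, any base, GCGC, was in 24.7% of these windows, in 8.94% of windows of tested genes and in 4.603% of all windows in the table. The YY1 motif AANATGGCG was in 13.7% of members' windows, 4.44% of those of tested genes and 2.38% of all. The GABP (ETS) motif CCGGAAGT was in 6.85%, 7.28% and 3.89%, the ERR motif TCAAGGTCA in 2.74%, 0.261% and 0.423%, and the CREB motif TGACGTCA in 5.48%, 2.93% and 1.79%. No match of 1 motif overlapped a match of another. The median log2 fold change was 0.25 over the 17 tested genes with an NRF1 match, against 0.22 over the 47 without one. It was 0.23 with and 0.22 without a GABP match (5 and 59 genes), and 0.20 with and 0.23 without a YY1 match (10 and 54 genes). For ERR it was 0.21 with and 0.22 without (2 and 62 genes), and for CREB 0.21 and 0.23 (4 and 60 genes). None of these differences was tested. A match describes the letters and not a bound site. The stretches below, from complexes I to V, end 1 base before the start, are printed 5′ to 3′ on the gene's strand, and have matches in capitals. Their genes were picked by hand and all hold a match, whereas 42.5% of the members' windows held an NRF1, GABP or YY1 match. Ndufb4 and Sdha hold 3 NRF1 matches each, Cox6a1 holds 2 and Ndufs5 holds 1. Uqcr11 holds a GABP match, and Atp5h holds an NRF1 and a GABP match.
Ndufb4 (chr16:37654369-37654568, minus strand): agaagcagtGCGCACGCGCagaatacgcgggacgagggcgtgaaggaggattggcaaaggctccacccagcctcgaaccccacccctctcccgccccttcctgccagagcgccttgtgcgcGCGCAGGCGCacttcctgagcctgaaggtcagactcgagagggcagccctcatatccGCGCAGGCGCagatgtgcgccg
Ndufs5 (chr4:123718187-123718296, minus strand): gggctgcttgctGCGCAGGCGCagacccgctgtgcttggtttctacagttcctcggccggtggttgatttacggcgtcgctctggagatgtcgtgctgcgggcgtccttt
Sdha (chr13:74350241-74350350, minus strand): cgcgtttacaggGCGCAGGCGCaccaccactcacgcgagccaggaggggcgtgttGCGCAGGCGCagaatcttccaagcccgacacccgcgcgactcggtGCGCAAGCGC
Uqcr11 (chr10:80406822-80406901, minus strand): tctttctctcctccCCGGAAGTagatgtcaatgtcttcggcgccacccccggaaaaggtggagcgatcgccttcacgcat
Cox6a1 (chr5:115348959-115349133, minus strand): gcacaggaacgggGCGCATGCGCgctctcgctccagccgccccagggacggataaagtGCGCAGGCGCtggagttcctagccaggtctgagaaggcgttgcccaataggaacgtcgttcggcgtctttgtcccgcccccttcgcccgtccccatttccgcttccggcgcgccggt
Atp5h (chr11:115419920-115420069, minus strand): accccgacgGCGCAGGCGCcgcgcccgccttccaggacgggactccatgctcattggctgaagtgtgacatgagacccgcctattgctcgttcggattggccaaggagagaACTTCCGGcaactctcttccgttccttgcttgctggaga

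Complex I, the NADH dehydrogenase, had all 37 genes tested and 20 higher at an unadjusted p below 0.05 (6.99% of all tested genes). Ndufb8, an accessory subunit of the membrane arm, had the smallest p in the complex. It was at 37.6, 33.4 and 34.7 CPM in WT and at 46.2, 43.8 and 43.8 in KO. The groups did not overlap, and the log2 fold change was 0.34 (SE 0.07, edgeR adjusted p = 0.135, which does not pass). Ndufb11, another membrane arm subunit, on the X chromosome (20192452 to 20194745 in mm9), was at 96.3, 90.6 and 101.3 CPM in WT and 115, 120.3 and 114 in KO. Its log2 fold change was 0.28 (SE 0.07, adjusted p = 0.156). Ndufb5, also of the membrane arm (chromosome 3, 32635912 to 32650488), was at 37.2, 33.8 and 37.0 CPM in WT and at 45.0, 42.7 and 43.9 in KO (0.29, SE 0.07, adjusted p = 0.159). Ndufs4, an accessory subunit of the matrix arm (chromosome 13, 115078003 to 115178302), was at 29.5, 30.9 and 29.8 CPM in WT and at 35.4, 35.4 and 38.2 in KO (0.27, SE 0.07, adjusted p = 0.165). For each of these 4 genes, all KO libraries were above all WT libraries, as for 11.3% of all tested genes. They were named for having the smallest p in the complex, which favours such genes.

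The 7 nuclear core subunits of complex I, which include those that bind NADH, flavin and the iron-sulfur clusters, had a median log2 fold change of 0.18. For the 30 other genes assigned to complex I by name, Ndufa4 and Ndufa4l2 among them, the median was 0.24. No test was made of that difference. Among the core genes 2 of 7 were higher at an unadjusted p below 0.05, and among the others 18 of 30. Over all tested genes that share was 6.99%. Ndufs7, which holds the last iron-sulfur cluster before ubiquinone, had the lowest fold change of the complex. It was at 29.3, 31.4 and 33.8 CPM in WT and at 31.4, 34.3 and 30.9 in KO, so the groups overlapped (0.03, SE 0.08, edgeR adjusted p = 0.883). Its sign turned without WT replicate 1 (-0.010) and without KO replicate 2 (-0.014). Ndufs1, the largest core subunit, also overlapped, with WT libraries at 69.2, 67.4 and 70.5 CPM and KO libraries at 68.1, 70.5 and 75.8 (0.05, SE 0.07).

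Complex II, succinate dehydrogenase, also works in the citrate cycle. For all 4 of its genes the lowest KO library lay above the highest WT library, as for 11.3% of all tested genes. Sdha, the flavoprotein that oxidises succinate (chromosome 13, 74459702 to 74487728), was at 201, 219 and 235 CPM in WT and at 253, 273 and 276 in KO. Its log2 fold change was 0.29 (SE 0.08, edgeR adjusted p = 0.191). Sdhb, the iron-sulfur subunit (chromosome 4, 140517118 to 140535108), was at 46.8, 45.0 and 43.0 CPM in WT and at 55.0, 54.4 and 55.1 in KO (0.29, SE 0.06, adjusted p = 0.140). The membrane anchors, which bind ubiquinone, were less alike. Sdhc (chromosome 1, 173057296 to 173080734) was at 75.7, 67.0 and 67.9 CPM in WT and at 96.0, 85.9 and 77.8 in KO (0.30, SE 0.10, adjusted p = 0.214). Sdhd (chromosome 9, 50404443 to 50411954) was at 94.7, 93.9 and 93.5 CPM in WT and at 99.3, 109.5 and 106 in KO (0.16, SE 0.06, adjusted p = 0.276).

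Complex III, the cytochrome bc1 complex, had 7 of its 9 genes higher at an unadjusted p below 0.05 (6.99% of all tested genes). For those 7 genes of the complex, every KO library was above every WT library, as for 11.3% of all tested genes. Uqcrc2, a core protein of its matrix side (chromosome 7, 127778690 to 127802992), was at 115, 109.95 and 113 CPM in WT and at 131, 132 and 136 in KO (0.24, SE 0.06, edgeR adjusted p = 0.154). Its partner Uqcrc1 (chromosome 9, 108838661 to 108851685) was at 86.5, 83.7 and 87.2 CPM in WT and at 104.6, 99.5 and 97.3 in KO (0.23, SE 0.06, adjusted p = 0.171). Uqcrfs1, the Rieske iron-sulfur protein (chromosome 13, 30632177 to 30637231), was at 76.3, 72.2 and 78.2 CPM in WT and at 81.9, 92.1 and 89.6 in KO (0.22, SE 0.07, adjusted p = 0.223). Uqcr10, a small subunit (chromosome 11, 4601976 to 4604345), was at 30.9, 30.1 and 30.1 CPM in WT and at 35.2, 34.7 and 35.6 in KO (0.21, SE 0.06, adjusted p = 0.198).

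The exception in complex III was Cyc1, cytochrome c1, which hands the electron to cytochrome c (chromosome 15, 76173953 to 76176364). It was at 49.97, 44.8 and 44.5 CPM in WT and at 49.1, 47.7 and 44.8 in KO, an overlap, with the lowest log2 fold change of all 79 genes (0.03, SE 0.08, edgeR adjusted p = 0.903). The sign of Cyc1 turned without WT replicate 2 (-0.00013), without KO replicate 1 (-0.0031) and with library totals in place of TMM (-0.05). Uqcrq, another small subunit, overlapped as well (0.16, SE 0.10, adjusted p = 0.476).

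Complex IV, cytochrome c oxidase, had 13 of its 18 genes tested. At an unadjusted p below 0.05, 11 of them were higher, against 6.99% of all tested genes. Cox5b, a zinc-binding subunit (chromosome 1, 36748332 to 36750230), was at 36.9, 36.3 and 33.8 CPM in WT and at 43.7, 43.4 and 42.7 in KO (0.28, SE 0.07, edgeR adjusted p = 0.154). Cox6b1, a subunit on the intermembrane side (chromosome 7, 31401993 to 31411170), was at 59.3, 56.9 and 57.3 CPM in WT and at 66.9, 69.3 and 68.2 in KO (0.24, SE 0.06, adjusted p = 0.159). For both genes every KO library was above every WT library, as for 11.3% of all tested genes. Cox4i1, the ubiquitous form of the largest nuclear subunit (chromosome 8, 123192190 to 123198109), was at 101.3, 91.7 and 102 CPM in WT and at 116, 112 and 113 in KO (0.21, SE 0.07, adjusted p = 0.211). Cox6c (chromosome 15, 35855641 to 35868001) was at 64.3, 60.5 and 56.4 CPM in WT and at 65.8, 76.5 and 74.9 in KO, with KO replicate 1 close to the highest WT library (0.26, SE 0.09, adjusted p = 0.225).

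The highest mean CPM in complex IV belonged to Cox7a2l and Cox8a. Cox7a2l, which joins complexes III and IV into supercomplexes (chromosome 17, 83901259 to 83913673), was at 115, 106 and 124 CPM in WT and at 123, 152 and 151 in KO (0.30, SE 0.11, edgeR adjusted p = 0.241). KO replicate 1 lay just under WT replicate 3, so the groups overlapped. Cox8a, the liver-type form of the smallest subunit (chromosome 19, 7289648 to 7292106), was at 104, 114 and 104 CPM in WT and at 129, 132 and 116 in KO (0.23, SE 0.08, adjusted p = 0.226). The lowest fold change was that of Cox7a2, at 55.4, 50.4 and 52.8 CPM in WT and at 60.7, 59.2 and 59.9 in KO, which still did not overlap (0.18, SE 0.06, adjusted p = 0.248).

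Complex V, the ATP synthase, had all 16 genes tested and 11 higher at an unadjusted p below 0.05 (6.99% of all tested genes). Atp5a1 and Atp5b encode the alpha and beta subunits of its catalytic head and had the highest CPM of all 84 genes. Atp5a1 (chromosome 18, 78012468 to 78021608) was at 555, 552 and 553 CPM in WT and at 655, 657 and 642 in KO (0.24, SE 0.07, edgeR adjusted p = 0.207). Atp5b (chromosome 10, 127520329 to 127527447) was at 544, 500.1 and 521 CPM in WT and at 606, 616 and 574 in KO (0.20, SE 0.08, adjusted p = 0.283). Of the peripheral stalk, Atp5h (chromosome 11, 115277003 to 115281276) was at 71.3, 65.5 and 59.9 CPM in WT and at 81.6, 81.8 and 77.8 in KO (0.29, SE 0.08, adjusted p = 0.177). Atp5f1, of the same stalk (chromosome 3, 105745616 to 105763017), was at 129, 122 and 134 CPM in WT and at 156, 145 and 148 in KO (0.22, SE 0.07, adjusted p = 0.203). For each of these 4 genes every KO library was above every WT library, as for 11.3% of all tested genes. Atp5d, the delta subunit of the central stalk, had the lowest fold change of the complex and did overlap, at 64.8, 67.5 and 62.9 CPM in WT and 66.9, 74.8 and 64.8 in KO (0.08, SE 0.08, adjusted p = 0.638).

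The rotor ring of complex V is built from a protein that Atp5g1, Atp5g2 and Atp5g3 all encode, with different import sequences and the same mature form. Atp5g3 (chromosome 2, 73746504 to 73749383) was the highest of these in CPM, at 118.5, 109.6 and 115 in WT and at 142, 139 and 132 in KO (0.27, SE 0.06, edgeR adjusted p = 0.156). Atp5g1 was at 0.29 (SE 0.11, adjusted p = 0.264) and Atp5g2 at 0.18 (SE 0.08, adjusted p = 0.308). All of these copies had KO libraries above WT libraries, as for 11.3% of all tested genes. Reads that fit more than 1 of the copies may have been lost or split in the authors' counting.

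Some subunit genes varied between libraries of 1 genotype, and the next ones were picked after their values were seen, except Cox6a2, which the naming rule holds. Cox6a2, the heart and muscle form of a complex IV subunit (chromosome 7, 135348950 to 135349880), was at 1.08 CPM in WT replicate 1 (29 counts) and at 30.2 and 36.4 in WT replicates 2 and 3 (812 and 983 counts). In the KO libraries it was at 43.1, 48.0 and 69.2 CPM (1134, 1257 and 1836 counts). WT replicate 1 was thus 33.6 times below the highest WT library. The log2 fold change was 1.24 (SE 0.89, edgeR adjusted p = 0.534), and without WT replicate 1 it was 0.69 (SE 0.22, adjusted p = 0.399). Cox6a1, the form found in most tissues (chromosome 5, 115795651 to 115798990), showed no such gap, at 83.4, 79.0 and 74.7 CPM in WT and 96.9, 92.9 and 84.9 in KO. The integrin gene Itgad, which lies on the other strand and shares 66 bp of exon with Cox6a2 in GENCODE vM1, was also lowest in WT replicate 1, with 5 counts against 26 to 77 in the other libraries. No source used here says whether the counting used strand.

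Ndufs5, a complex I accessory subunit (chromosome 4, 123389953 to 123395445), was at 26.5, 25.6 and 17.8 CPM in WT and at 28.7, 42.0 and 39.0 in KO. The groups did not overlap, KO replicate 1 lay close to WT replicates 1 and 2, and the log2 fold change was 0.65 (SE 0.19, edgeR adjusted p = 0.202). KO replicates 2 and 3 were its 2 highest libraries, and these are the libraries with Xist counts. The part of that difference in these values was not tested.

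**Figure D4:**
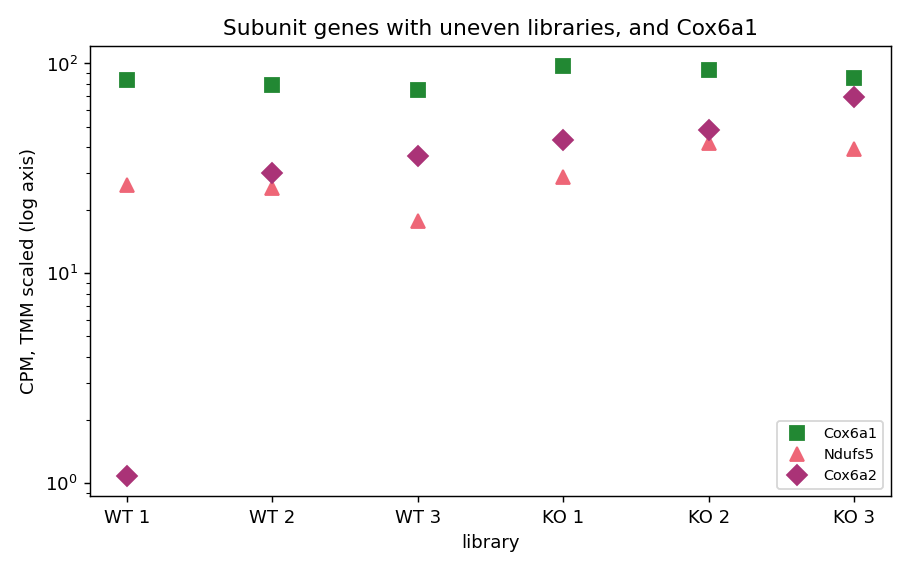
TMM-scaled CPM (y axis, log scale) of Cox6a1, Ndufs5 and Cox6a2 in each library (x axis; 1 symbol per gene and library). Cox6a2 is at 1.08 CPM in WT replicate 1 and at 30.2 to 69.2 in the other libraries, while Cox6a1 stays between 74.7 and 96.9.

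Isoforms used mainly in muscle, lung or testis were otherwise near the limit of detection, and 5 of them failed the low-count filter, with 45 counts at most over all 6 libraries. Cox7a1, the muscle form of a subunit, had 6 to 10 counts in each library, and Cox6b2, a testis form, had 3 to 8. Cox7b2 had at most 2 counts in a library, Cox8b had 2 and 1 in KO replicates 1 and 2 and 0 in the rest, and Cox8c had 0 in all 6. A count of 0 allows a level of up to 0.114 CPM at these depths (3 counts, counting error only). Cox4i2, the lung form, passed the filter at 0.486, 1.0 and 1.18 CPM in WT and 1.06, 1.64 and 1.06 in KO, and overlapped (0.49, SE 0.39, edgeR adjusted p = 0.581).

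Divided by exonic length, the levels of subunits in 1 complex spread widely. On the RPKM scale (TMM-scaled CPM per kb of exons, mean of both groups), the medians were 24.8 in complex I, 43.4 in complex II, 52.7 in complex III, 69.7 in complex IV and 43.0 in complex V, against 4.38 over all tested genes. The narrowest range was in complex III, from 22.1 for Uqcrq to 60.0 for Uqcrfs1. Cox8a was the highest of all at 214, followed by Atp5a1 at 192 and Cox4i1 at 156. Ndufa4, which is named for complex I and was later placed in complex IV, was at 155 RPKM, while the median of complex I was 24.8. Its paralog Ndufa4l2, known for its induction by low oxygen, was at 3.65 RPKM and did not differ beyond its spread (log2 fold change 0.15, SE 0.25, edgeR adjusted p = 0.807). Exonic length here joins all annotated transcripts of a gene, so a long rare transcript lowers the value.

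The genes of factors that bind the motifs shown in the promoters did not pass the test. Nrf1 had a log2 fold change of -0.10 (SE 0.10, edgeR adjusted p = 0.660), Gabpa one of 0.08 (SE 0.07, adjusted p = 0.628), and the coactivator gene Ppargc1a one of -0.32 (SE 0.29, adjusted p = 0.630). A list of 16 genes for the transcription and copying of mitochondrial and respiratory genes had a median of -0.07. Of these, 6 were positive, against 50.3% of all tested genes. Gabpb2, a partner of GABPA, was at 66.8 ± 5.42 CPM for WT and 52.3 ± 2.12 for KO without overlap (SD, n = 3 each; log2 fold change -0.36, SE 0.08, adjusted p = 0.143), and Polrmt, the mitochondrial RNA polymerase, was at -0.32 (SE 0.10, adjusted p = 0.208). Neither passed.

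Genes that build or serve the complexes were mostly positive, against 50.3% of all tested genes, but called in no case. Of 15 assembly genes of complex I, 12 were positive, with a median log2 fold change of 0.13, led by Timmdc1 (0.27, SE 0.09, edgeR adjusted p = 0.213) and Ndufaf3 (0.29, SE 0.12, adjusted p = 0.283). For complex II it was 4 of 4 (median 0.20) and for complex III 6 of 6 (median 0.24), the smallest p there being those of Sdhaf4 (0.30, SE 0.09) and of Uqcc2 (0.28, SE 0.10). Next in these lists were Sdhaf2 (0.12, SE 0.09, adjusted p = 0.543) and Uqcc1 (0.24, SE 0.10, adjusted p = 0.287). For complex IV 13 of 18 tested genes were positive (median 0.13). At an unadjusted p below 0.05 in edgeR, 2 of these 18 were higher and 2 lower, against 6.99% and 9.38% of all tested genes. Coa3, a factor for the assembly of its first subunit, averaged 54.2 ± 3.38 CPM for WT and 70.9 ± 5.44 for KO (0.39, SE 0.08, adjusted p = 0.135). Coa5, from the same list, was at 0.20 (SE 0.06, adjusted p = 0.209). The copper chaperone gene Cox17 was at -0.64 (SE 0.25, adjusted p = 0.280). Of 6 genes that assemble or regulate complex V, 5 were positive (median 0.15). Usmg5, which encodes a small protein bound to it, was at 0.24 (SE 0.08, adjusted p = 0.231), followed by 2010107E04Rik (0.21, SE 0.09, adjusted p = 0.292).

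Mitochondrial import and carrier genes had a median of 0.21, with 18 of 20 tested positive, against 50.3% of all tested genes. The ADP/ATP carrier gene Slc25a5 averaged 153 ± 12.7 CPM for WT and 185 ± 4.48 for KO (0.27, SE 0.08, edgeR adjusted p = 0.194), and Vdac3, a channel of the outer membrane, was at 0.22 (SE 0.07, adjusted p = 0.214). Cytochrome c itself (Cycs) was at 0.27 (SE 0.11, adjusted p = 0.308) in a list of 12 tested electron carrier and ubiquinone synthesis genes with a median of 0.11 and 10 positive, followed there by Coq4 (0.21, SE 0.14, adjusted p = 0.489). The 13 subunits encoded in mitochondrial DNA all had positive values, with a median of 0.39 and none called. The smallest p were those of mt-Atp6 (0.53, SE 0.15, adjusted p = 0.193) and mt-Nd1 (0.43, SE 0.13, adjusted p = 0.201), subunits of complexes V and I. They summed to 23123, 21629.8 and 25740.4 CPM for WT and to 28262, 27252 and 29909 for KO, a ratio of 1.21 with no overlap. As a share of all counts they took 2.29%, 2.25% and 2.70% for WT and 2.72%, 2.65% and 2.94% for KO, and on that scale the groups overlapped.

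The fold changes were also set beside exonic length, scaling and cell makeup. The median exonic length was 1240 bp for the tested subunit genes with annotation and 3524 bp for all tested genes with annotation. The tested genes with annotation were split by exonic length into 5 bins of nearly equal size. In the bin with the shortest exons, which holds 52 of the subunit genes, the median log2 fold change was 0.093 over all genes and 0.23 over the subunit genes. In the next bin it was 0.043 over all genes and 0.23 over 15 subunit genes, in the third 0.0064 and 0.24 (7 genes), and in the fourth -0.041 and 0.19 (4 genes). With smooth offsets for length and GC content in each library, 76 of 78 subunit genes were positive, the median was 0.16, and 22 were higher at an unadjusted p below 0.05 (6.25% of all genes in that fit). The 2 negative genes were Ndufc2 (-0.02) and Ndufs1 (-0.0014).

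**Figure D5:**
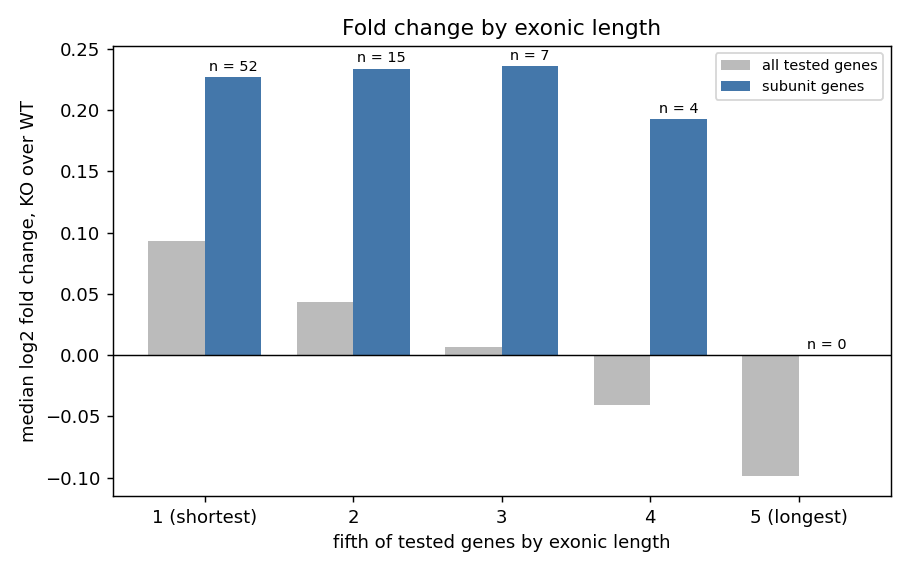
Median log2 fold change, KO over WT (y axis), in 5 bins of the tested genes by exonic length (x axis), for all tested genes (grey bars) and for the subunit genes (blue bars, with their number). The grey bars go from 0.093 in the shortest bin to -0.099 in the longest, which holds no subunit gene, and the blue bars are at 0.23, 0.23, 0.24 and 0.19.

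With library totals in place of TMM the subunit median was 0.15 and that of all tested genes -0.075, and 76 of the 79 were positive, against 37.7% of all genes. Under that scaling 18 were higher at an unadjusted p below 0.05 (2.07% of all genes), and Cyc1, Ndufs1 and Ndufs7 were negative. As a share of all counts, the 84 genes took 0.523 ± 0.00974% in WT and 0.583 ± 0.0136% in KO (SD, n = 3 each). The number at an unadjusted p below 0.05 also depended on single libraries: it was 28 without WT replicate 2 (4.76% of all genes), 34 without KO replicate 1 and 30 without KO replicate 2 (4.15%). Without WT replicate 1 it was 47 (4.5%).

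Among cell type lists, beta cell markers summed to 216312 to 235051 CPM in WT and 279055 to 286899 in KO, and endothelial markers to 362 to 448 CPM in WT and 512 to 538 in KO. These 2 lists did not overlap between groups, and no member was called. Of their members, 7 of 10 and 7 of 8 were positive, against 50.3% of all tested genes. Alpha cell markers summed to 35296 to 45628 CPM in WT and 31913 to 37058 in KO, and acinar markers, which mark exocrine carry-over, to 23454 to 74643 in WT and 17610.4 to 46100.1 in KO, both overlapping. With the acinar level as a covariate the subunit median was 0.24, all 79 were positive and 48 were higher at an unadjusted p below 0.05 (4.95% of all genes). The part of the beta and endothelial lists in the subunit values was not tested. Lists for delta, pancreatic polypeptide, duct, stellate, macrophage, lymphocyte, erythrocyte, Schwann and brown fat or muscle cells overlapped between groups, and no member of any was called. The brown fat and muscle list, set here beside Cox6a2, has 9 genes and summed to 3.01 to 8.18 CPM in WT and 5.58 to 17.9 in KO. In it Adipoq and Myh6 were at 0 in all libraries, Ckm, Mb, Myh2 and Ucp1 had at most 2 counts in any library, Actc1 had 2 to 7, Cidea 6 to 14 and Fabp4 57 to 460. Its part in the Cox6a2 values was not tested.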

How the data were processed

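The deposited table holds raw read counts per gene that the authors had not normalized, in 1 column per library. The build mm9 and the tools HTSeq, HISAT2 2.1.0, CASAVA 1.8.2 and DESeq2 are listed in the submitters' processing notes. Annotation and counting options: not given in the sources used here. Column names gave the samples, with 0 columns left over. The analysis used edgeR 4.0.16 under R 4.3.3: filterByExpr by genotype (15915 of 53670 genes), TMM factors, a quasi-likelihood fit of genotype, and Benjamini-Hochberg adjustment over all tested genes, called below 0.05. A positive log2 fold change means higher in KO. DESeq2 1.42.0, limma-voom (limma 3.58.1), other scalings, filters and offsets (mgcv 1.9.3), the replicate block and left-out libraries were alternatives, and library totals without TMM and complex IV without Cox6a2 were added after seeing the data. The scripts were tested on simulated counts with known changes. The edgeR test called 0% of 50 genes changed 1.25-fold, 8.33% of 48 changed 1.5-fold and 51.0% of 49 changed 2-fold. Of its calls, 9.09% were genes left unchanged. A missing call therefore says little about a change of 1.25-fold.

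Exonic length, GC content and coordinates came from GENCODE vM1 on mm9, for 92.95% of tested genes and 83 of the 84 subunit genes (not Ndufb8). Of these, 18 share exon bases with another gene, and their counts may include its reads. The subunit genes, lists and rules were chosen with earlier results of these data known. Values by library are given for all complex II genes and, in each other complex, for the 4 genes with the smallest unadjusted p and the 2 with the highest mean CPM. The gene with the lowest fold change in each complex and the tissue-restricted isoforms are also named. For 1 gene that this rule holds, values are not reported here. In each pathway list, the 2 genes with the smallest unadjusted p are named. Ndufs1, Ndufs5, Ndufa4, Ndufa4l2, Ndufc2, Uqcrq, Cox6a1, Atp5g1, Atp5g2, Itgad, Cox17, Nrf1, Gabpa and Ppargc1a were named in addition, after their values were seen.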

Additional observations from a re-analysis of the deposited data

How the results depend on the processing

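No alternative turned the median of the subunit genes or their summed level, and 0 of the 79 were called in every alternative but DESeq2, which called 9. With the replicate number as a block, 0 subunit genes were called, the median was 0.23 and the genes called lower over all genes went from 27 to 0. Whether the numbers pair the libraries was not tested. Each library's deviations from its group mean, on the log2 CPM scale over all tested genes, were correlated between WT and KO libraries. The 3 same-numbered pairs had correlations of 0.18, 0.039 and 0.053, and pairs with unlike numbers had -0.14 to 0.064. Deviations within a group sum to 0, so these correlations are not independent of each other. Over all left-out libraries the median ran from 0.21 to 0.26, the summed log2 ratio from 0.22 to 0.25, the positive genes from 77 to 79, those at an unadjusted p below 0.05 from 28 to 47, the genes called lower over all genes from 0 to 80 and higher from 0 to 9. The length and GC offsets gave a summed log2 ratio of 0.18, a median of 0.16, 22 at an unadjusted p below 0.05 and 0 called lower. Library totals gave 0.16, 0.15, 18 and 120. KO replicate 1 alone gave 11 at an unadjusted p below 0.05, with 0 called lower and 1 higher. Over all genes DESeq2 called 396 lower and 157 higher, limma-voom and the acinar covariate 0 lower, and an adjusted p below 0.1 gave 125 lower and 7 higher. Ndufs7 turned without WT replicate 1 (-0.010), without KO replicate 2 (-0.014), in KO replicate 1 alone (-0.0015) and with library totals (-0.046). Cyc1 turned without WT replicate 2 (-0.00013), without KO replicate 1 (-0.0031) and with library totals (-0.0502). Over the left-out libraries Ndufs7 ran from -0.014 to 0.097 and Cyc1 from -0.0031 to 0.088. The cause of these changes was not tested.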

Other observations

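Of the 7 rows named as pseudogenes of these families, Atp5k-ps2 and Uqcrh-ps1 were set beside their parent genes. Both held fewer counts. Atp5k-ps2 had 101 to 129 counts per library, while Atp5k, a small subunit of complex V, had 525 to 716. Uqcrh-ps1 had 36 to 47 counts and its parent Uqcrh, the hinge protein of complex III, had 1523 to 1839. How the authors' counting treated reads that fit both a gene and its copy is not given in the sources used here.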
